A study of Ovis aries with 8 samples.

Results

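The MYC, MAX and MXD network is described here through 10 genes, chosen by symbol from a list of its members, out of 28475 genes in the deposited table. The 10 are MYC, MYCN, MYCL, MAX, MXI1, MXD3, MXD4, MNT, MLX and MGA, and all 10 were in the table and passed the filter on low values. Polyadenylated RNA was sequenced in 8 libraries of embryonic stem cells of the sheep, a cell type that comes from the early embryo's inner cell mass and is pluripotent. Primed cells, labelled WT, came as line A and line B, each with 2 libraries at passage 10, and grew without feeder cells in NBFR medium. NBFR medium held Activin A and bFGF at 20 ng/mL each, the tankyrase inhibitor endo-IWR-1 at 3 µM and bovine serum albumin at 1%, which is listed for this medium only. Naive-like cells, labelled as converted from primed to naive, had 2 libraries grown feeder-free and 2 grown on mouse embryonic fibroblasts (MEFs), all at passage 12. Their medium held LIF and Activin A at 20 ng/mL each, the MEK inhibitor PD0325901 at 1 µM, the tankyrase inhibitor XAV-939 at 2 µM, the protein kinase C inhibitor Go6983 at 2 µM, the SRC inhibitor CGP77675 at 1.2 µM and ascorbic acid at 50 µg/mL. All groups therefore received Activin A and a tankyrase inhibitor, and all were kept at 37 °C and 5% CO2. Medium, passage and state changed together and cannot be told apart. Labels name no source line for the naive-like cells. They also do not say that libraries sharing a group were separate cultures, so p-values measure the spread between these libraries only, which may be technical.

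MYC, MYCN and MYCL encode transcription factors that bind DNA at E-box sequences only after pairing with MAX, and they raise the expression of genes for growth, ribosome assembly and metabolism. The MXD proteins, MNT and MGA also pair with MAX but repress: MXD proteins and MNT recruit SIN3 corepressors, and MGA brings MAX into a Polycomb complex called PRC1.6. MLX resembles MAX and pairs with some MXD proteins, with MNT and with the glucose-responsive factors MLXIP (MondoA) and MLXIPL (ChREBP). In mouse embryonic stem cells MYC and MYCN sustain proliferation and self-renewal and can in part replace each other, and MAX together with MGA holds germline genes down.

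Levels are given in TPM, a transcript abundance corrected for transcript length, so that genes can be compared with each other. Labels give about 20000000 paired-end reads for each library, but TPM do not hold counts and the depth behind each value is unknown. Of the 7 pluripotency genes used to check the cell type, 6 were at 1 TPM or more in every library, among them POU5F1, SOX2 and NANOG. DPPA4 was the exception, with a highest value of 1.74 TPM. Summed over 12 fibroblast genes, levels were 99.1 to 133 TPM in primed, 57.7 to 62.1 TPM in feeder-free naive-like and 238 to 242 TPM in MEF libraries. COL1A1 was the largest part of this sum in each library. The sum of 6 hypoblast genes, nearly all of it APOA1, was 379 to 471 TPM in primed and 70.6 to 91.5 TPM in naive-like libraries. The sum of 5 trophectoderm genes, nearly all of it KRT18, was 205 to 250 TPM against 47.4 to 51.3 TPM, and that of 5 neuroectoderm genes was 100.2 to 119 TPM against 5.49 to 7.03 TPM feeder-free and 24.5 to 24.99 TPM on MEFs. In naive-like libraries most of the neuroectoderm sum was SIX3, at 4.50 and 6.29 TPM feeder-free and 23.4 and 23.5 TPM on MEFs. PAX6, SOX1, RAX and LHX2 were each under 1 TPM there. Genes annotated as ribosomal RNA took 5.89 to 6.26% of TPM in line A, 4.42 to 5.12% in line B, 1.43 to 1.63% in feeder-free and 2.69 to 3.48% in MEF libraries. These markers and the ribosomal RNA share move with the comparisons that follow. The part of the markers was not tested, and for the ribosomal RNA share values were recomputed after rescaling without these genes. In such bulk samples a change in the share of cells that express a gene and a change in the RNA per cell cannot be told apart.

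MYCN was the most abundant member in all 4 groups, and the place of MYC differed most between them. In primed line A the order ran from MYCN at a mean of 63.5 TPM through MLX, MAX, MXD4, MYCL, MGA, MXD3, MXI1 and MYC to MNT at 8.09 TPM. MYC stood at 11.7 TPM there. Overlapping neighbours in line A were MLX and MAX, MGA and MXD3, and MXI1 and MYC. In line B the order was the same except that MGA stood above MYCL and MYC above MXI1, and the overlapping neighbours were MXD4 and MGA, and MYCL and MXD3. In feeder-free naive-like cells MYC and MYCL followed MYCN at means of 47.1 and 46.9 TPM, and their libraries overlapped. In MEF libraries MYCL followed MYCN at 52.2 TPM, and MYC came after MLX and MAX at 31.2 TPM, and the libraries of MLX and MAX overlapped. MXI1 was the lowest member in both naive-like groups, at 3.90 and 5.52 TPM. MXD4 and MXD3 overlapped in both, and MXD3 and MNT in the feeder-free group.

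**Figure D1:**
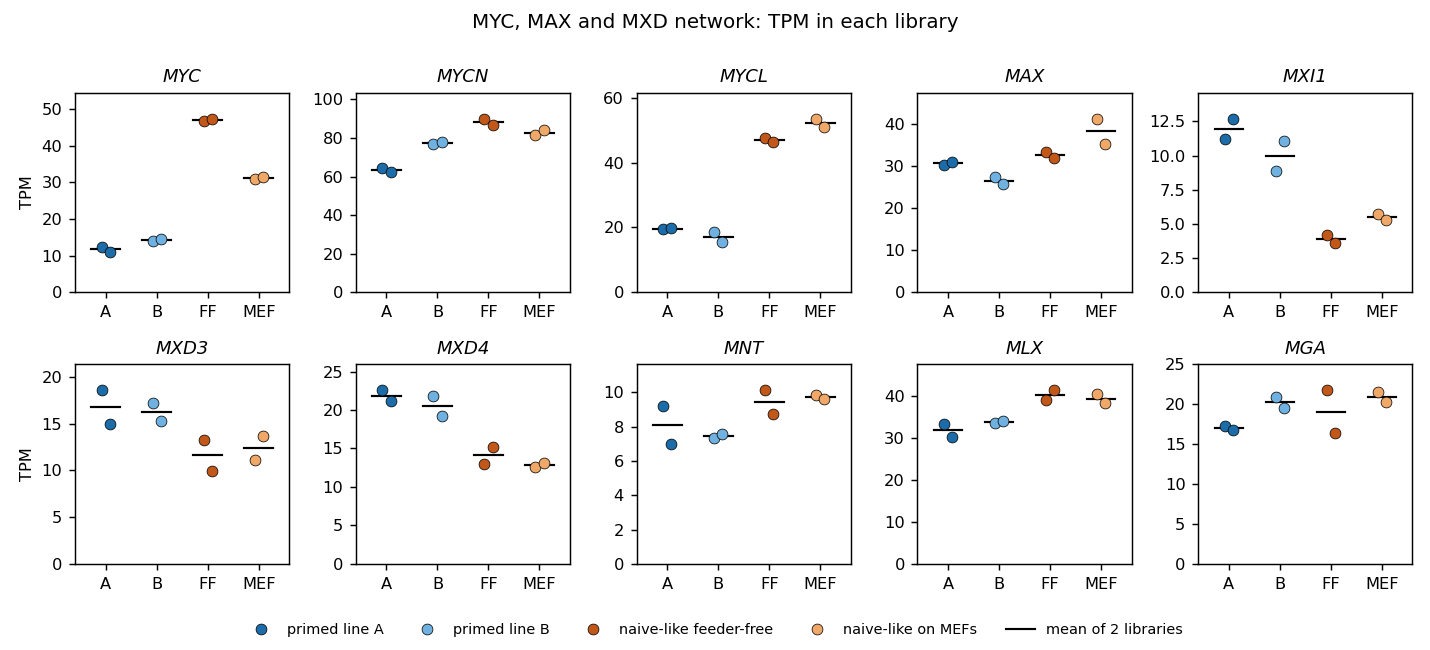
TPM (vertical axes, from 0) of the 10 members in each of the 8 libraries, with 1 point per library and a bar at the mean of the 2 libraries of a group. MYC and MYCL are higher in all 4 naive-like libraries than in any primed library, MXI1, MXD3 and MXD4 are lower, and MGA overlaps between the states.

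The comparison of the 4 naive-like with the 4 primed libraries asked how the members differed between the states. The activating members MYC, MYCN and MYCL were all higher in naive-like cells, by 3.01-fold, 1.22-fold and 2.69-fold in mean TPM. The repressors MXI1, MXD3 and MXD4 were all lower, at 0.430, 0.730 and 0.637 times their primed means. The shared partners MAX and MLX and the repressor MNT were slightly higher, and MGA did not pass the test. In all, 6 of 10 members rose and 3 fell, while of 14779 genes tested 28.6% rose and 22.1% fell, 50.7% together. The excess of rises over all genes depended on the scaling, with 4233 rises and 3260 falls as deposited and 3759 and 3806 with median-ratio scaling. MYC, MYCL and MXI1 changed at least 2-fold on the log2(TPM + 1) scale, 3 of 10 members against 10.8% of all genes. The libraries of the states did not overlap for 8 of 10 members and for 47.7% of all genes. The median log2 change of the members was 0.27, against 0.05 over all genes tested. With so many genes past the threshold, passing it sets a member little apart, and the sizes of the changes are given for each.

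MYC, the founding member of the family, was at 12.3 and 11.1 TPM in line A, 14.1 and 14.6 TPM in line B, 46.8 and 47.3 TPM without feeders and 31.0 and 31.4 TPM on MEFs. The states did not overlap, and the naive-like libraries fell into a higher feeder-free pair and a lower MEF pair. On the log2(TPM + 1) scale MYC rose by 1.50 ± 0.160 (SE, limma, adjusted p = 6.39e-05, n = 4 against 4), from a mean of 13.0 ± 1.62 (SD) to 39.1 ± 9.15 TPM.

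MYCL, the paralog first found in small cell lung cancer, was at 19.4, 19.9, 18.7 and 15.6 TPM in the primed libraries of lines A and B and at 47.5, 46.3, 53.5 and 50.9 TPM in the feeder-free and MEF libraries. It was higher in each naive-like library than in each primed library, and unlike MYC its highest values were on MEFs. MYCL rose by 1.38 ± 0.0853 (adjusted p = 2.07e-06), from 18.4 ± 1.91 to 49.5 ± 3.28 TPM.

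MYCN, the paralog known for its part in neuroblastoma and in embryonic stem and progenitor cells, was at 64.6 and 62.4 TPM in line A, 76.7 and 77.7 TPM in line B, 90.0 and 86.6 TPM in naive-like cells without feeders and 81.6 and 84.0 TPM on MEFs. The states did not overlap, but line B stood close below the MEF libraries. MYCN rose by 0.28 ± 0.0800 (adjusted p = 0.0150), from 70.3 ± 7.94 to 85.5 ± 3.59 TPM. Against line B alone the rise was 0.15 with an adjusted p of 0.0764.

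Because TPM are corrected for length, the 3 paralogs can be added. Their sum was 93.4 to 109 TPM in primed and 166 to 184 TPM in naive-like libraries. MYCN made up 66.9 to 72.0% of it in primed and 48.0 to 50.5% in naive-like libraries. The share of MYC was 11.9 to 13.5% in primed, 25.4 to 26.3% in feeder-free and 18.7 to 18.9% in MEF libraries, and the share of MYCL was 14.5 to 21.3%, 25.7 to 25.8% and 30.6 to 32.2%. MYCN mRNA was thus 5.27 to 5.64 times as abundant as MYC mRNA in primed libraries and 1.83 to 2.67 times in naive-like libraries. These sums and shares are descriptions and carry no test.

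**Figure D2:**
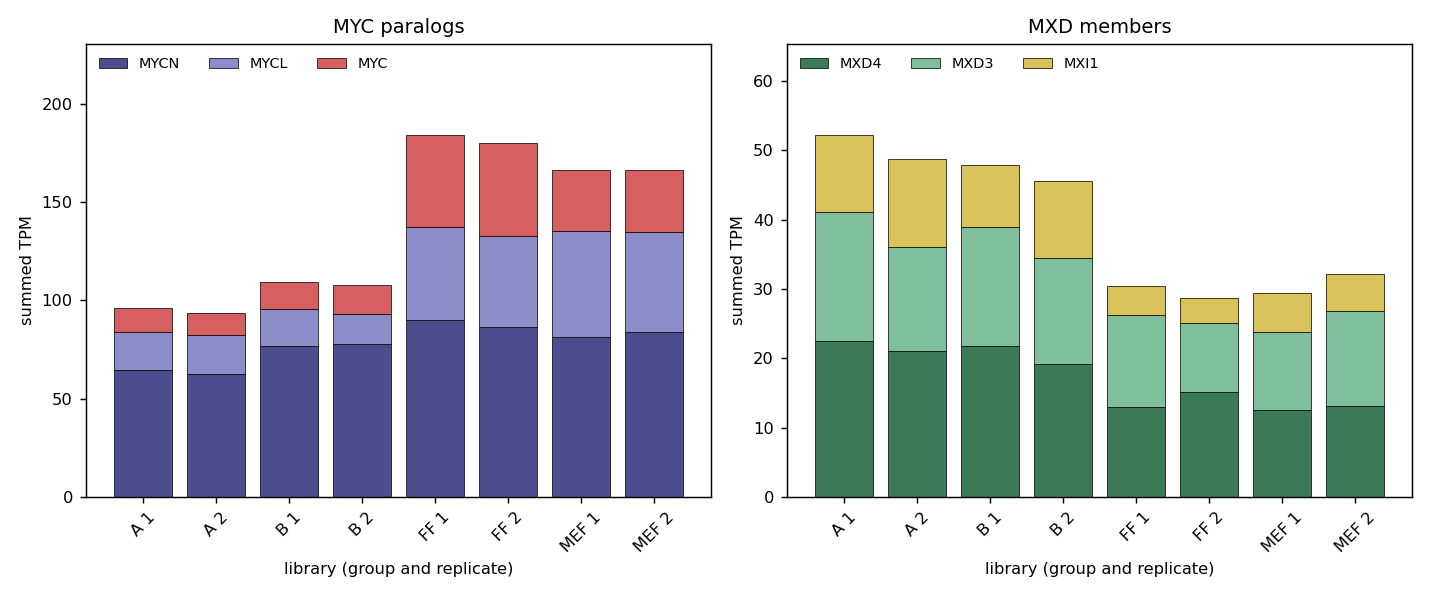
Summed TPM (vertical axes, from 0) of MYCN, MYCL and MYC (left) and of MXD4, MXD3 and MXI1 (right) in each library. The left bars rise from 93.4 to 109 TPM in primed to 166 to 184 TPM in naive-like libraries, and the right bars fall from 45.5 to 52.3 TPM to 28.7 to 32.1 TPM.

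MXI1, also called MXD2, whose protein competes with MYC for MAX, was at 11.2, 12.7, 8.90 and 11.1 TPM in primed cells and at 4.21, 3.60, 5.75 and 5.29 TPM in naive-like cells. Each naive-like library was below each primed library, and the feeder-free pair was the lowest. MXI1 fell by 1.07 ± 0.146 on the log2 scale (adjusted p = 0.000283). In the RefSeq annotation SMNDC1, a splicing factor gene, overlaps the MXI1 locus, and SMNDC1 was at 39.8 to 48.4 TPM with no such step between the states. Whether reads of SMNDC1 entered the MXI1 value was not tested.

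MXD4, a repressor linked to cell cycle exit and differentiation, was at 22.5, 21.1, 21.8 and 19.2 TPM in primed and at 13.0, 15.2, 12.6 and 13.1 TPM in naive-like libraries. The states did not overlap, and MXD4 fell by 0.62 ± 0.0802 (adjusted p = 0.000222). MXD3, which in the mouse is expressed in the S phase of dividing cells, was at 18.6, 14.9, 17.2 and 15.2 TPM against 13.3, 9.98, 11.1 and 13.7 TPM. The gap between the states was narrow for MXD3, which fell by 0.43 ± 0.114 (adjusted p = 0.0112), and its adjusted p was 0.0658 once groups entered as a random block.

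MXD1, the fourth gene of the family and the repressor through which it was first described, is not among the 10 members but was examined beside them. It was at 6.001, 4.57, 4.86 and 4.71 TPM in primed and at 2.58, 2.31, 2.21 and 1.54 TPM in naive-like libraries, without overlap, and fell by 0.94 ± 0.133 (adjusted p = 0.000353). All 4 MXD genes were therefore lower in naive-like cells, where 22.1% of all genes tested fell. This held with median-ratio scaling, quantile normalization and rescaling without ribosomal RNA genes. With groups as a random block MXD3 was not called (limma, adjusted p = 0.0658). The sum of MXI1, MXD3 and MXD4 was 45.5 to 52.3 TPM in primed and 28.7 to 32.1 TPM in naive-like libraries. The sum of the MYC paralogs was 1.84 to 2.37 times that of these repressors in primed and 5.18 to 6.27 times in naive-like libraries, as a ratio of mRNA levels with no test.

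MAX, a partner shared by both arms, was at 30.3, 31.0, 27.3 and 25.6 TPM in primed and at 33.2, 31.9, 41.2 and 35.3 TPM in naive-like libraries. The states were separated only by a narrow gap between line A and the feeder-free libraries, and MAX rose by 0.30 ± 0.0938 (adjusted p = 0.0247). That call was lost with median-ratio scaling (adjusted p = 0.0559), with quantile normalization (0.0654), without ribosomal RNA genes (0.0558), with groups as a random block (0.0585), against line A alone (0.171) and without line B replicate 1, line B replicate 2, MEF replicate 1 or MEF replicate 2 (0.0509 to 0.0645). The MYC paralogs summed to 3.02 to 4.22 times the level of MAX in primed and 4.03 to 5.65 times in naive-like libraries, and the 3 MXD members to 1.57 to 1.78 times and 0.717 to 0.918 times.

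MNT, a broadly expressed repressor that pairs with MAX or MLX, was at 9.20, 6.97, 7.35 and 7.59 TPM in primed and at 10.1, 8.75, 9.83 and 9.62 TPM in naive-like libraries. The states overlapped through line A replicate 1, and MNT rose by 0.27 ± 0.0959 (adjusted p = 0.0388). The call was lost with no filter (adjusted p = 0.0640), with median-ratio scaling (0.0662), without ribosomal RNA genes (0.0766), with groups as a random block (0.141), against line A alone (0.177) and on leaving out any of line A replicate 2, line B replicate 1, line B replicate 2, feeder-free replicate 1, MEF replicate 1 and MEF replicate 2 (0.0775 to 0.0996).

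MGA, a large protein that carries a T-box besides its region for pairing with MAX, was at 17.2, 16.8, 21.0 and 19.5 TPM in primed and at 21.7, 16.4, 21.6 and 20.3 TPM in naive-like libraries. Its libraries overlapped throughout, with a log2 difference of 0.09 and a 95% interval from −0.15 to 0.34 (adjusted p = 0.490). MLX was at 33.4, 30.1, 33.5 and 34.1 TPM in primed and at 39.0, 41.3, 40.3 and 38.3 TPM in naive-like libraries. The states did not overlap, and MLX rose by 0.27 ± 0.0585 (adjusted p = 0.00393). In the RefSeq annotation PSMC3IP overlaps the MLX locus, and PSMC3IP was at 52.8 to 58.0 TPM in primed and 77.8 to 85.3 TPM in naive-like libraries. Whether reads of that gene entered the MLX value was not tested.

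**Figure D3:**
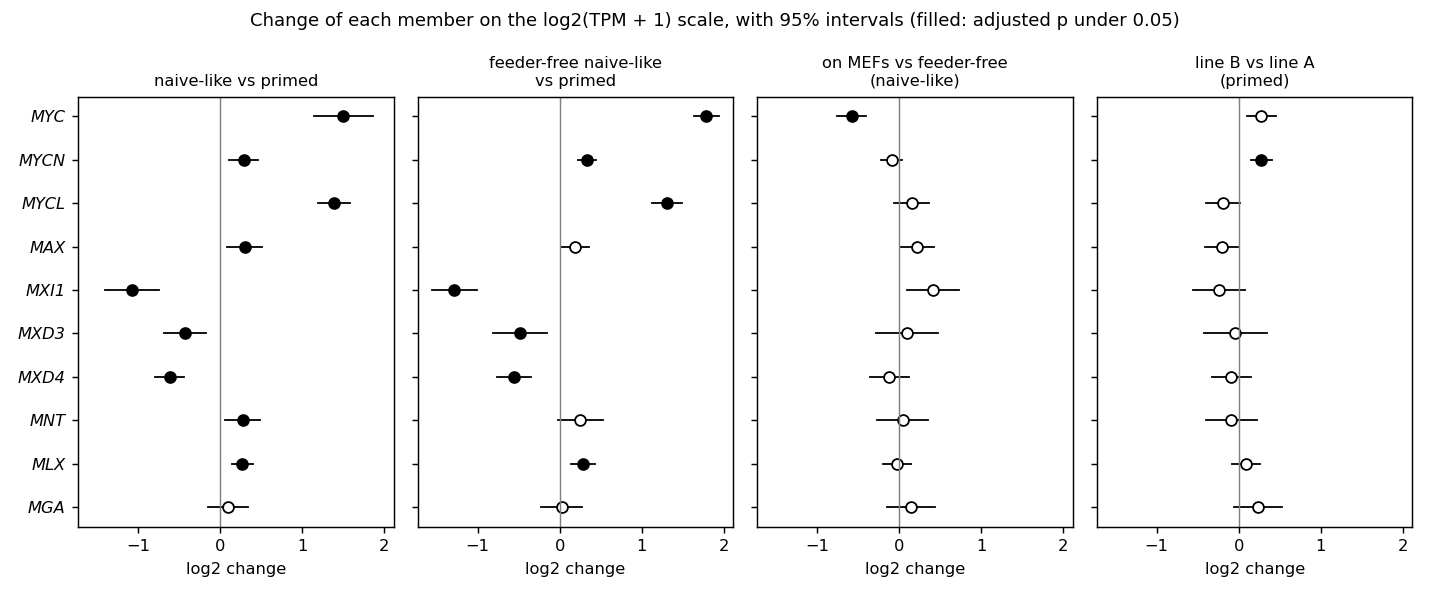
Log2 change of each member (horizontal axis, log2(TPM + 1) scale) in the 4 comparisons, with 95% intervals from limma and filled points at an adjusted p under 0.05. MYC, MYCL and MXI1 lie farthest from 0 for state, only MYC is called between MEF and feeder-free libraries, and only MYCN between the primed lines.

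Feeder-free naive-like libraries were also set against the primed libraries, so that neither side held MEFs. The primed libraries are the same as in the comparison of state, and the results are therefore not independent of it. MYC rose by 1.79 ± 0.0665 (adjusted p = 4.32e-07), to 3.62 times its primed mean, MYCL by 1.31 ± 0.0781 (adjusted p = 4.85e-06) and MYCN by 0.33 ± 0.0472 (adjusted p = 0.000585). MXI1 fell by 1.28 ± 0.118 (adjusted p = 5.25e-05), MXD4 by 0.56 ± 0.0895 (adjusted p = 0.00109) and MXD3 by 0.48 ± 0.142 (adjusted p = 0.0213). MLX rose by 0.29 ± 0.0645 (adjusted p = 0.00607). In all 4 members rose and 3 fell, while over all genes tested 30.8% rose and 25.6% fell, 56.4% together. MYC, MYCL and MXI1 again passed with at least 2-fold changes, against 12.1% of all genes. Feeder-free and primed libraries did not overlap for 8 of 10 members, against 59.8% of all genes. MAX at 0.19 (adjusted p = 0.0636), MNT at 0.25 (0.102) and MGA at 0.02 (0.873) did not pass. MXD3 lost its call without line A replicate 1 (adjusted p = 0.0605), line B replicate 1 (0.0593) or feeder-free replicate 2 (0.173). MAX passed with only these groups in the fit (adjusted p = 0.0495) and without MEF replicate 1 (0.0489) or MEF replicate 2 (0.0481), and MNT with quantile normalization (0.0486) or without line A replicate 1 (0.0284).

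Within the naive-like state, cells on MEFs were compared with feeder-free cells. MYC was lower on MEFs, at 31.2 ± 0.318 against 47.1 ± 0.390 TPM (SD, n = 2 each), a fall of 0.58 ± 0.0768 on the log2 scale (adjusted p = 0.00642). MYC was the only member of 10 that passed, and 5.16% of all genes tested passed in this comparison, 2.27% as falls and 2.89% as rises. Without MEF replicate 1 or MEF replicate 2 its adjusted p was 0.0649 and 0.0617, with a fall of 0.57 and 0.59, the lone MEF library being assumed to vary like the other groups. MYCL was at 52.2 ± 1.84 against 46.9 ± 0.856 TPM, a difference of 0.15 with a 95% interval from −0.06 to 0.36 (adjusted p = 0.383). MYCN was at 82.8 ± 1.70 against 88.3 ± 2.38 TPM, a difference of −0.09 with an interval from −0.22 to 0.03 (adjusted p = 0.382). Values on MEFs and without feeders did not overlap for MYCL and MYCN, nor for MXI1 (0.41 ± 0.136, adjusted p = 0.135) and MAX (0.22 ± 0.0869, adjusted p = 0.199), and with MYC these are 5 of 10 members, against 52.6% of all genes tested. The summed fibroblast genes were at 238 to 242 TPM on MEFs against 57.7 to 62.1 TPM, and COL1A2 was at 39.0 and 37.0 TPM against 0.0468 and 0.219 TPM. The list was not uniform. LUM went the other way, at 13.1 and 11.2 TPM on MEFs against 20.4 and 17.2 TPM feeder-free, and THY1 and DCN overlapped between these groups. The part of feeder RNA in the lower MYC value was not tested.

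Between the primed lines, MYCN was higher in line B, at 77.2 ± 0.704 against 63.5 ± 1.56 TPM, a rise of 0.28 ± 0.0545 (adjusted p = 0.0231). It was the only member of 10 that passed, while 7.36% of all genes tested passed, 4.18% as rises and 3.17% as falls. That balance turned with the scaling, from 618 rises and 469 falls as deposited to 404 and 602 with median-ratio scaling and 476 and 617 with quantile normalization. The lines did not overlap for 7 of 10 members, against 54.8% of all genes. The call was lost with median-ratio scaling (0.21, adjusted p = 0.0560), with quantile normalization (0.18, adjusted p = 0.0795), with no variance trend (adjusted p = 0.0722), with only the primed groups in the fit (adjusted p = 0.0734), and without any primed library or either MEF library (adjusted p = 0.0535 to 0.107). MYC was at 14.3 ± 0.334 in line B and 11.7 ± 0.844 TPM in line A, a difference of 0.28 with a 95% interval from 0.10 to 0.45 (adjusted p = 0.0719). The other members had adjusted p-values of 0.197 to 0.916.

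The levels of MYC, MYCN and MYCL across the 8 libraries were matched with those of 10537 other genes with a mean of at least 5 TPM, as the root mean square difference of log2 values centred on each gene's mean. The genes most like MYC were PAMR1, the focal adhesion gene PARVA and the tight junction gene F11R, with differences of 0.0824, 0.107 and 0.134. Those most like MYCN were NUDT1, which clears oxidized nucleotides, the splicing factor SRSF2 and the nucleolar gene RSL1D1, at 0.0282 to 0.0355. Those most like MYCL were the Polycomb gene PHC1, AOPEP and SH3BP1, at 0.0645 to 0.0740. The match describes levels over 8 libraries in 2 states and says nothing of shared control.

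The MLX arm of the network was followed in its other partners and in genes known to respond to MLXIP. MLXIP was at 9.55, 9.78, 9.74 and 7.45 TPM in primed and at 16.2, 14.6, 15.1 and 15.2 TPM in naive-like libraries, without overlap, and rose by 0.69 ± 0.0941 (adjusted p = 0.000289). MLXIPL was low, at 0.496 to 1.17 TPM in primed and 2.09 to 3.31 TPM in naive-like libraries, and rose by 1.04 ± 0.152 (adjusted p = 0.000437). With MLX, all 3 genes of this arm were higher in naive-like cells, where 28.6% of all genes tested rose.

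TXNIP, which restrains glucose uptake and is the classical target of MLXIP, was at 42.2, 46.0, 43.2 and 38.7 TPM in primed cells, at 5.40 and 5.85 TPM without feeders and at 15.6 and 14.7 TPM on MEFs. It fell by 2.07 ± 0.308 for state (adjusted p = 0.000489) and was 2.69-fold higher on MEFs than feeder-free (adjusted p = 0.000239). ARRDC4, a related arrestin gene, was at 42.8 to 57.9 TPM in primed and 10.5 to 17.9 TPM in naive-like libraries and fell by 1.78 ± 0.151 (adjusted p = 1.53e-05). KLF10, the third target gene listed, was at 27.9 to 32.1 TPM against 32.1 to 34.7 TPM (0.16, adjusted p = 0.0510). It passed among genes with a mean of at least 5 TPM (adjusted p = 0.0450), in a fit of 4 groups (0.0226), against line B alone (0.0265) and without line A replicate 1 (0.0254), and rose by 0.19 ± 0.0609 in feeder-free against primed cells (adjusted p = 0.0306). The levels of TXNIP and ARRDC4 thus went opposite to those of MLXIP, MLXIPL and MLX.

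**Figure D4:**
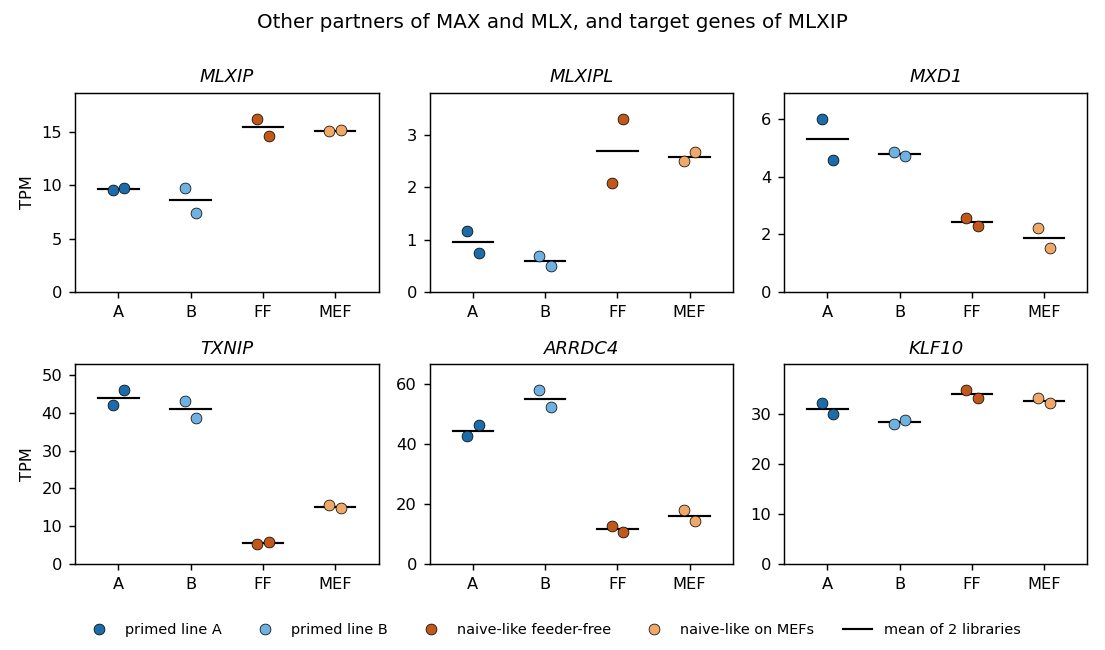
TPM (vertical axes, from 0) of MLXIP, MLXIPL, MXD1, TXNIP, ARRDC4 and KLF10 in each library, with a bar at the mean of the 2 libraries of a group. MLXIP and MLXIPL are higher and MXD1, TXNIP and ARRDC4 lower in each naive-like library than in each primed library, and TXNIP is lowest feeder-free.

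Genes commonly listed as MYC targets were examined for state in 2 lists. Of 28 genes for the nucleolus and ribosome assembly, 27 rose and 0 fell, with a median log2 change of 0.42 against 0.05 over all genes tested. Among genes with a mean of at least 5 TPM, 31.6% rose and 21.1% fell. RRP9, which acts in the maturation of small-subunit rRNA, rose by 0.94 ± 0.0742 from 25.8 to 50.4 TPM, and PPAN, which acts on the large subunit, by 0.88 ± 0.0790 from 32.4 to 60.5 TPM. MYBBP1A, a nucleolar regulator, rose by 0.86 ± 0.0649 and RRP12, needed for subunit export, by 0.79 ± 0.0832. NPM1, the abundant nucleolar chaperone and the gene of this list that did not pass, was at 2783 to 3128 TPM in primed and 2779 to 2947 TPM in naive-like libraries. The count was 24 with median-ratio scaling, 25 with groups as a random block and 22 against line B alone, with no falls. In the feeder-free comparison 27 rose as well, where 30.8% of all genes rose, with a median of 0.48 against 0.04 over all genes. On MEFs against feeder-free 0 rose and 1 fell, where 2.89% of all genes rose and 2.27% fell, so this count does not set the list apart. The median there was −0.13 against 0.02 over all genes.

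The second list, of 29 tested genes for metabolism and growth, was mixed, with 13 rises, 5 falls and a median of 0.16, where 28.6% of all genes rose and 22.1% fell. Rises numbered 11 with median-ratio scaling, without ribosomal RNA genes and with groups as a random block. SRM, which makes spermidine, rose by 0.99 ± 0.0594 from 43.2 to 86.5 TPM, and SHMT1, an enzyme of one-carbon metabolism, by 0.83 ± 0.0882. SHMT2, a paralog of SHMT1 on the same list, fell by 0.33 ± 0.0533 from 85.4 to 67.5 TPM (limma, adjusted p = 0.000742). LDHA, which makes lactate, fell by 1.71 ± 0.155 from 862 to 266 TPM and hexokinase HK2 by 1.66 ± 0.129, and both are glycolysis genes. TERT, the catalytic subunit of telomerase, was singled out after its values were seen, at 0.503 to 2.57 TPM in primed and 6.11 to 6.66 TPM in naive-like libraries, a rise of 1.58 ± 0.261 (adjusted p = 0.000899).

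Among 17 genes for coactivators and other partners of MYC proteins, 13 rose and 0 fell, with a median of 0.29. Of all genes tested 28.6% rose and 22.1% fell, and of those with a mean of at least 5 TPM 31.6% rose and 21.1% fell. The scaffold TRRAP rose by 0.54 ± 0.0919, the elongation factors PAF1 and SUPT5H by 0.45 ± 0.0484 and 0.36 ± 0.0552 and the kinase CDK9 by 0.32 ± 0.0505. The count was 10 with median-ratio scaling, 9 with quantile normalization, 11 without ribosomal RNA genes and 10 with groups as a random block or against either primed line alone. Of 15 genes that control MYC protein turnover, 6 rose and 2 fell, with a median of 0.05, equal to that of all genes, of which 28.6% rose and 22.1% fell. Falls numbered 4 with median-ratio scaling, with quantile normalization and without ribosomal RNA genes. PPP2R5A, a subunit of the phosphatase PP2A, fell by 1.08 ± 0.102 from 22.9 to 10.3 TPM, while SET, an inhibitor of PP2A, rose by 0.32 ± 0.0412, and the deubiquitinases USP7 and USP36 rose by 0.32 ± 0.0505 and 0.38 ± 0.0638.

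On the repressor side, 4 of 16 SIN3 and NCOR corepressor genes rose, 2 fell and 10 did not pass, near the 28.6% and 22.1% of all genes. The balance depended on the scaling, with 3 rises and 5 falls with median-ratio scaling, 4 and 4 with quantile normalization and 4 and 5 without ribosomal RNA genes. BRMS1 rose by 0.79 ± 0.0641, SAP130 by 0.46 ± 0.0763 and SUDS3 by 0.33 ± 0.0890, and the histone-binding protein RBBP7 fell by 0.23 ± 0.0560. SUDS3 lost its call against line B alone (0.17, adjusted p = 0.0671) and RBBP7 against line A alone (−0.19, adjusted p = 0.050003). Of 11 partners of MGA in PRC1.6, 3 rose, 2 fell and 6 did not pass, again near the shares over all genes, so neither count sets these lists apart. L3MBTL2 and TFDP1 rose by 0.36 ± 0.0612 and 0.33 ± 0.0576, RING1 fell by 0.40 ± 0.0780 and YAF2 by 1.09 ± 0.133, from 4.69 to 1.66 TPM. Of 22 germline genes that MAX, MGA or PCGF6 are known to hold down in mouse embryonic stem cells, 18 did not reach 1 TPM in 2 libraries, with a highest value of 0.998 TPM, and 4 of these were listed at 0 throughout. Among the 4 tested, TDRKH fell by 0.25 ± 0.0609, and STAG3, at 0.907 to 1.51 TPM in primed and 1.33 to 2.26 TPM in naive-like libraries, rose by 0.39 ± 0.142 (adjusted p = 0.0441). TDRKH lost its call against line B alone (−0.21, adjusted p = 0.0561). The STAG3 call was lost with no filter (adjusted p = 0.0584), with median-ratio scaling (0.0591), without ribosomal RNA genes (0.0563), with the replicate number as a block (0.0616), with groups as a random block (0.140), against either primed line alone (0.0830 and 0.132) and without either line A or feeder-free library, line B replicate 2 or MEF replicate 2 (0.0709 to 0.108), and DDX4 (adjusted p = 0.568) and MEIOC (adjusted p = 0.598) did not pass.

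**Figure D5:**
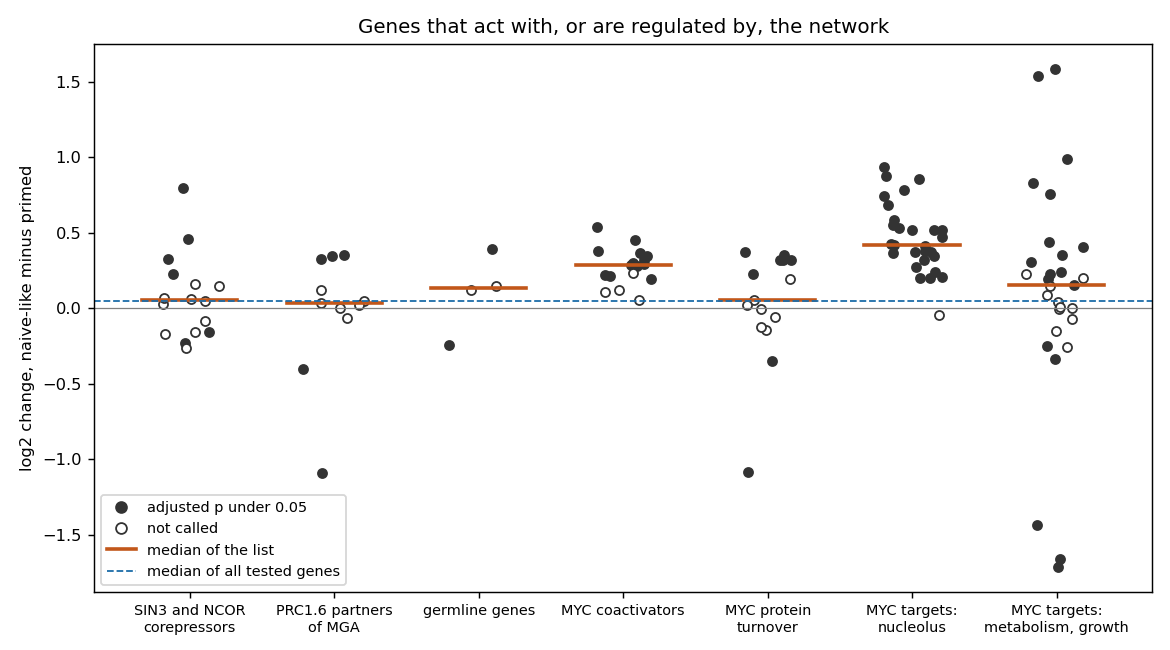
Log2 change for state (vertical axis, naive-like minus primed, log2(TPM + 1) scale) of each tested gene in 7 lists, with orange bars at list medians and a dashed line at the median of all tested genes, 0.05. Of the nucleolar list 27 of 28 points are filled above 0, and the metabolism list spreads to both sides.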

How the data were processed

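The authors deposited TPM per gene symbol for 8 libraries, and the submitters' processing notes name Salmon, a transcript quantifier. Its version, the genome build and the strandedness are not given in the sources used here. All 10 members matched symbols of a RefSeq sheep annotation, which was used only for names, overlapping genes and 25 ribosomal RNA genes. No sequences are shown.

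The 14779 genes that reached 1 TPM in 2 or more libraries were tested on log2(TPM + 1) with limma 3.58.1 in R 4.3.3, with a variance trend and two-sided p-values adjusted by Benjamini-Hochberg over all genes, at a threshold of 0.05. This scale understates changes of low genes. State was fitted with 4 libraries a side, and the other comparisons as contrasts in a fit of 4 groups of 2. Errors of log2 changes are SE and those of TPM are SD. On simulated libraries of 14779 genes, 85.1% of 1.5-fold and 95.5% of 2-fold changes were recovered for state, 65.7% and 89.6% for feeder-free against primed, 61.2% and 85.1% for MEFs against feeder-free, and 47.8% and 89.6% for line B against line A. Only 200 genes were changed in each simulation, all above a minimum level, and the spread was that within groups. The simulated libraries thus lacked the differences between lines and between culture systems. In the real fit for state these differences add to the spread, so the rates for state can be too high.

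The members and lists were chosen with earlier results of these data known. Named were all members, the other MAX and MLX partners, per list up to 4 genes, those with the lowest adjusted p for state, and the 3 genes nearest to each MYC paralog. NPM1, SHMT2 and TERT, from the lists of MYC targets, were named outside this rule. Lists are described by counts and medians, without a test. Alternatives covered the pseudocount (0.1 or 5), filter, scaling, trend, blocks, groups fitted, single primed lines and single libraries left out. Rescaling without ribosomal RNA genes was chosen after seeing the data.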

Additional observations from a re-analysis of the deposited data

How the results depend on the processing

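For state, 6 to 9 of the 10 members passed under the alternatives run, and MYC, MYCL, MXI1, MXD4 and MLX passed under each. Of all genes tested, 7493 passed, against 7237 with the replicate number as a block, 5848 with groups as a random block and 9026 in a fit of 4 groups. Deviations of same-numbered libraries correlated at −0.07 to 0.10. In each group replicate 1 had more genes at 1 TPM or more, and a higher median-ratio factor, than replicate 2. Whether the replicate numbers mark a batch was not tested. With the replicate number as a block MAX passed between feeder-free and primed cells (adjusted p = 0.0497), and no other member changed its call. STAG3, a gene of the germline list, lost its call for state. Between MEF and feeder-free cells 762 genes passed, but 497 with no filter, 235 with only these groups in the fit and 191 to 610 with single libraries left out, when 0 to 1 members passed. Between the lines 1087 genes passed, but 420 with only these groups and 353 to 1213 with single libraries left out, when 0 to 1 members passed. There 0 members passed with median-ratio scaling, 0 with quantile normalization, 0 with no variance trend and 0 with only these groups. Changes of sign touched only differences that had not passed. For state these were MGA (−0.0232) and DDX4 (−0.0749) against line B alone, MEIOC (−0.11) against line A alone, and, with single libraries left out, DDX4 (−0.00879 to 0.257) and MEIOC (−0.0251 to 0.225). Between feeder-free and primed cells MGA was at −0.0134 with median-ratio scaling, −0.000687 with quantile normalization, −0.0328 without ribosomal RNA genes and −0.17 to 0.22 with single libraries left out. On MEFs MNT was at −0.00940 with quantile normalization, and with single libraries left out MNT ran from −0.0498 to 0.14, MXD3 from −0.0938 to 0.28, MLX from −0.0678 to 0.0107 and MGA from −0.0500 to 0.34. Between the lines MXD3 ran from −0.19 to 0.11 and MNT from −0.27 to 0.0875. The cause of these shifts was not tested. Depth is unknown, so the precision of low values such as MLXIPL or TERT cannot be given.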
